A study of Mus musculus with 721 samples.

Results

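The cells described here are the epiblast cells of E6.5 mouse embryos that were placed on the library plates named P1, P2 and P3. A cell was taken as a member when the mean log2(CPM + 1) of the visceral endoderm genes Apoa1, Ttr, Cubn, Dab2, Amn and Apoc2 was not above that of the epiblast genes Pou5f1, Tdgf1 and Dnmt3b, where CPM is a cell's counts scaled to a common total. The rule kept 90 of the 129 cells on these plates, out of 721 cells in the series, and left 39 cells on the endoderm side. Members came from 9 embryos, 29 of them on P1 (embryos 1 to 3, with 3, 3 and 23 members), 32 on P2 (embryos 4 to 6, with 16, 11 and 5) and 29 on P3 (embryos 7 to 9, with 9, 15 and 5). All embryos of the study were wild type C57Bl/6Babr, single cells were amplified by Smart-seq2, and E6.5 embryos were staged by eye as early streak. The E6.5 plate epiblast was set against 259 of 267 E5.5 cells chosen by the same rule. It was also set against the E6.5 cells whose titles name no plate, most of them titled E6.75. Of these the rule kept 107 of 121, and 51 had no count of the streak gene T. Embryos with at least 3 such cells entered the tests, 8 at E5.5 and 3 without a plate name. At E5.5 the extraembryonic ectoderm was cut away and the epiblast drawn out of its visceral endoderm, while at E6.5 extraembryonic tissue was removed and the rest taken apart. Stage, plate, dissection and processing cannot be told apart in these comparisons.

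The epiblast is the tissue from which the body of the embryo forms. After implantation it leaves the naive pluripotent state, turns on factors of the formative and primed states such as Otx2 and Fgf5, and is patterned by Nodal, BMP, Wnt and FGF signals until cells of the posterior side enter the primitive streak. It is wrapped by the visceral endoderm, an extraembryonic epithelium that makes transport proteins such as Apoa1 and Ttr and, at its anterior side, inhibitors of Nodal and Wnt signals such as Cer1 and Dkk1.

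**Figure D1:**
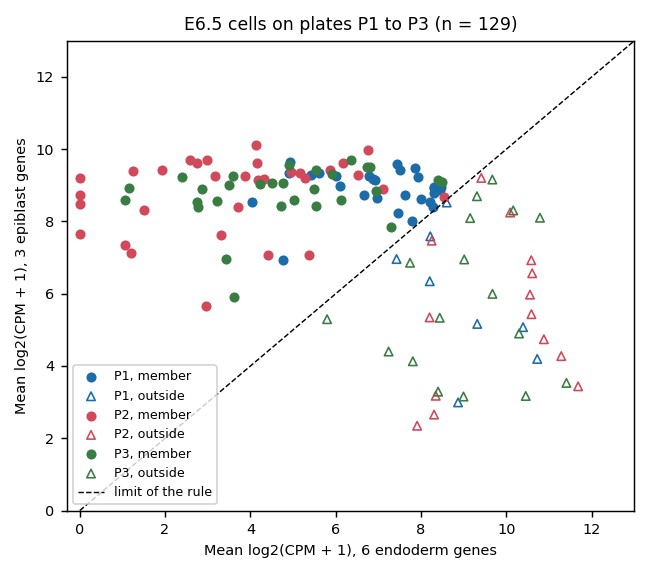
Mean log2(CPM + 1) of the 6 endoderm genes (x axis) and of the 3 epiblast genes (y axis) in each of the 129 E6.5 cells on plates P1 to P3, coloured by plate, with members filled and the other cells open. The dashed line is the limit of the rule. Of the 90 members, 15 lay within 1 log2 unit of it.

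The values used by the rule were continuous across its limit. The members just inside had epiblast means above their endoderm means by 0.121, 0.140 and 0.203 log2 units, and the cells just outside had them below by margins of -0.0767, -0.207 and -0.465. Within 1 log2 unit of the limit lay 15 members and 9 of the other cells. The 3 epiblast genes were detected in nearly every member, with Pou5f1, the core pluripotency factor, and Dnmt3b, a de novo DNA methyltransferase, in 90 of 90 cells and Tdgf1, the Nodal co-receptor, in 86. Members were chosen on these 3 genes, so their detection is a description and no independent evidence of identity.

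The 5 genes proposed as markers of these cells were checked on the members. Zic5 (14:122456795-122465677, GRCm38, minus strand) and Zic2 (14:122475435-122479852, plus strand), neighbouring zinc finger factors, were detected in 90 and 89 of 90 members. Sox4, an HMG box factor, and Trim71, an RNA-binding ubiquitin ligase of the let-7 pathway, were detected in all 90 and Fgf5, a ligand of the post-implantation epiblast, in 84. Against the 39 endoderm-side cells of the same plates the markers did not all set the members apart. Mean levels were 385 CPM in members and 132 CPM in endoderm-side cells for Zic5, and 50.3 and 24.8 CPM for Zic2. Sox4 stood at 355 CPM in both, Trim71 at 429 and 297 CPM, and Fgf5 was lower in members, at 159 against 254 CPM. These values come from cells parted by the rule, so they are given without a test.

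Promoter sequences of 4 of the 5 markers were taken from RefSeq (GRCm38.p6, 250 bases before to 50 after the start). They are shown because these genes stood higher in all 9 embryos than in any E5.5 embryo, as given below. Capitals mark matches, on either strand, to the TATA box (TATAAA), the CCAAT box (CCAAT), the OTX motif (TAATCC) or the POU octamer (ATGCAAAT), and each is printed in the direction of its gene.
Zic5, 14:122465609-122465908, minus strand: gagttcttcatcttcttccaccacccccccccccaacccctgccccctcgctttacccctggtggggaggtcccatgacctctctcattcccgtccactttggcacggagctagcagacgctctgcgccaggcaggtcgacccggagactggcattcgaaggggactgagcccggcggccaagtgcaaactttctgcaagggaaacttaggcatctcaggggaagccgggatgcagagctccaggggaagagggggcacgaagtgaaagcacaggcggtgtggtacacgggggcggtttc
Sox4, 13:28953650-28953949, minus strand: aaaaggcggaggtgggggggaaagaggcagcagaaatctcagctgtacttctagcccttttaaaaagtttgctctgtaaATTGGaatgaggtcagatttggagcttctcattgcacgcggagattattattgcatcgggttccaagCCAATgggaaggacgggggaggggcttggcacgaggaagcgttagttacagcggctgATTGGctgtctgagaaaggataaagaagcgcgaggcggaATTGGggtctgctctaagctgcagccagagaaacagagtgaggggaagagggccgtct
Trim71, 9:114564320-114564619, minus strand: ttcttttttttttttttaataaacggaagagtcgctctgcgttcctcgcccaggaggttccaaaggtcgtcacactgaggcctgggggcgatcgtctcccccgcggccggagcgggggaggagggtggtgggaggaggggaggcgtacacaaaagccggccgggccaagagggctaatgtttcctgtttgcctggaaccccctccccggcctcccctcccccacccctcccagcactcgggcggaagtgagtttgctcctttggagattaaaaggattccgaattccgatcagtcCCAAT
Fgf5, 5:98253934-98254233, plus strand: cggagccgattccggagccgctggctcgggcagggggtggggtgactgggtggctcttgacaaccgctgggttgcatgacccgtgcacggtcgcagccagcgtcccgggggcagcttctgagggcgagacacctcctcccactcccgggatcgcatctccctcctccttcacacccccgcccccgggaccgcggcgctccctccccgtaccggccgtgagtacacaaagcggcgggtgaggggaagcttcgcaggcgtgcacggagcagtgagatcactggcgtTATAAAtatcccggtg
The Sox4 promoter held 4 CCAAT boxes, that of Trim71 held 1, and that of Fgf5 held 1 TATA box, while none of the 4 motifs was found in that of Zic5. Of all 32851 promoters of this length, 37.4% held a CCAAT box, 13.6% a TATA box, 7.06% the OTX motif and 1.74% the octamer. The 4 windows had 15, 12, 19 and 29 CG pairs in this order, against a median of 7 over all promoters. A match is a description of the letters and no evidence of binding.

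Total counts per member ranged from 204990 to 2367568 with a median of 711534, and 4009 to 7811 genes (median 5862.5) were detected per cell. Of the members, 3 came from wells labelled double. No pair of members had identical values. The reads carry no molecular identifiers, so counting intervals would cover counting error only. In sums over an embryo, fewer cells of a kind and less RNA per cell cannot be told apart. The embryo was the replicate, and levels below are CPM of the summed member counts of an embryo after TMM scaling.

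Relative to the 8 E5.5 embryos, 2458 of 13793 genes changed (edgeR's quasi-likelihood test, Benjamini-Hochberg adjusted p up to 0.05 with more than 1 log2 unit of change). Higher on the plates were 896 genes, or 6.5% of those tested, and 1562 genes (11.3%) were lower. The split turned to 839 higher and 816 lower when the embryos without a plate name were left out of the model, to 1032 and 1107 with single wells only and to 559 and 1964 with the embryo number as a block. The same number names different animals in the groups, so this block pairs nothing. Over all genes tested the median log2 fold change was -0.19, and each fold change can be read against it. Counts of list genes that rose or fell can likewise be read against the 6.5% and the 11.3%.

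All 5 markers stood higher at E6.5 than in any E5.5 embryo. Zic5 had 617, 339 and 357 CPM in embryos 1 to 3, 519.9, 407 and 279 CPM in embryos 4 to 6, and 348, 389 and 209 CPM in embryos 7 to 9, against 18.6 to 69.2 CPM (median 43.4) in E5.5 embryos, with a log2 fold change of 3.22 ± 0.31 (SE). Zic2 ranged from 32.6 to 83.9 CPM with a median of 49.2, against 2.98 to 12.7 CPM (median 11.3), a log2 fold change of 2.52 ± 0.38. For neither gene did the embryos of the stages overlap. Sox4 was at 179 to 529 CPM (median 386) against 67.4 to 147 CPM (1.97 ± 0.23), Trim71 at 208 to 683 CPM (median 382) against 41.8 to 111 CPM (2.33 ± 0.26), and Fgf5 at 92.4 to 232 CPM (median 169) against 46.4 to 73.6 CPM (1.44 ± 0.24). The markers were picked on these same samples, as were the 18 genes that the study lists for its first E6.5 epiblast class, of which 17 were higher than at E5.5, so neither count is independent evidence. Among the latter Dpysl2, a microtubule regulator of growing axons, was at 122 to 317 CPM against 1.62 to 14.3 CPM at E5.5 (4.74 ± 0.37).

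Of 18 formative and primed factors, 8 rose and 2 fell, with a median log2 fold change of 0.86. Of all genes 6.5% rose and 11.3% fell. Of the 8 factors that rose, Zic2, Zic5, Sox4 and Fgf5 are markers picked on these samples, so the count and the median are not independent evidence. The other genes that rose were Otx2, a homeobox factor of the post-implantation epiblast, Cd24a, a surface protein of primed cells, Lin28b, a blocker of let-7 maturation, and Fst, a secreted inhibitor of activins. Otx2 was at 234 to 587 CPM (median 339) against 85.1 to 189 CPM (median 154), a log2 fold change of 1.27 ± 0.20, and every plate embryo stood above every E5.5 embryo. Cd24a was at 275 to 804 CPM (median 522) against 31.5 to 144 CPM, a log2 fold change of 2.67 ± 0.29. Fst was uneven, with 229 CPM in embryo 2 and 127 CPM in embryo 3 but 0.597, 3.59 and 1.97 CPM in embryos 6, 7 and 9, and its call (2.57 ± 0.74) was lost without plate P1 or with the block. Dnmt3a, the other de novo methyltransferase, fell in all embryos, to 275 to 597 CPM from 878 to 1499 CPM, a log2 fold change of -1.49 ± 0.14. Tcf15, a factor of the exit from the naive state, also fell, from 9.09 to 101 CPM to between 0 and 16.9 CPM. Pou3f1, a POU factor often used to mark the primed state, was at 51.9 to 181 CPM against 80.0 to 154 CPM and did not pass the test (-0.13 ± 0.22, adjusted p = 0.74).

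**Figure D2:**
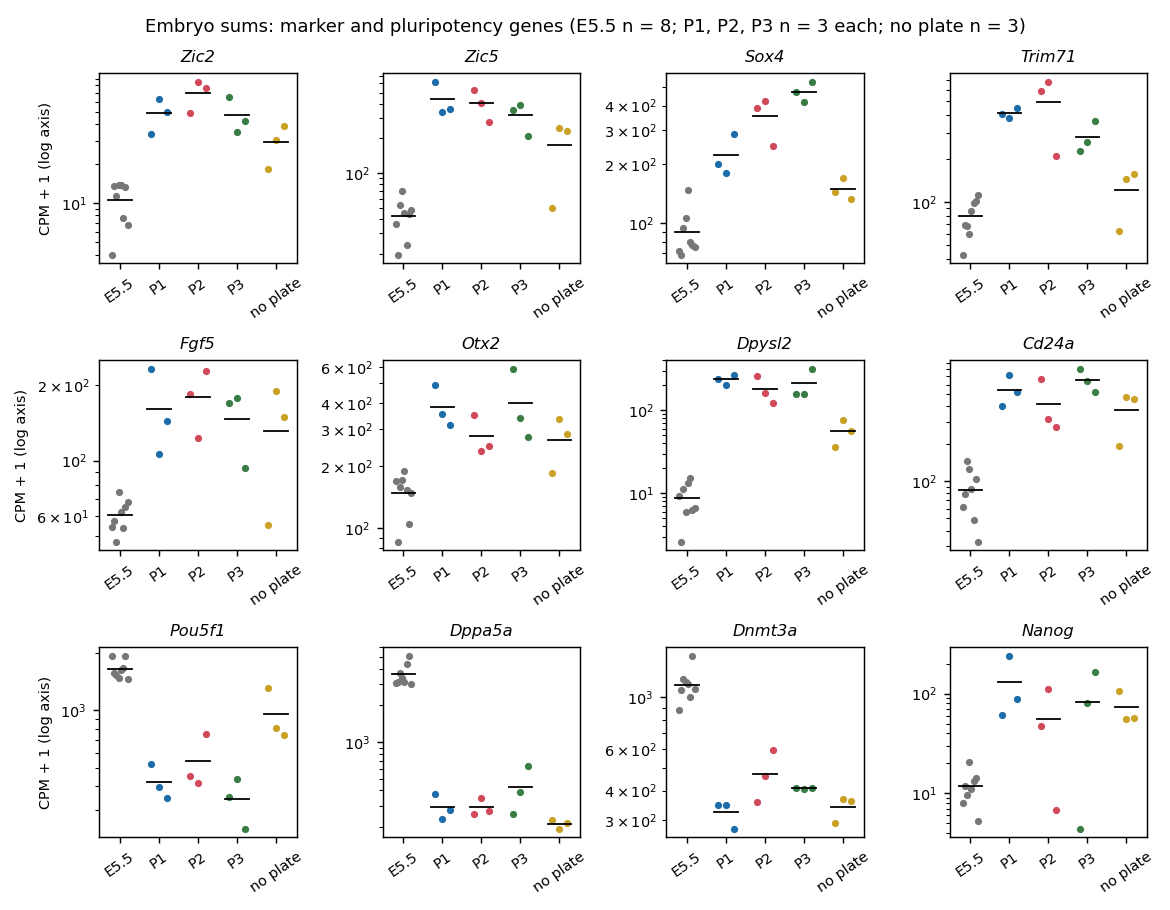
Level of 12 genes in the summed epiblast cells of each embryo (CPM + 1, log axis), with 8 embryos at E5.5, 3 on each plate at E6.5 and 3 without a plate name. Points are embryos and bars are group means. Embryos of P1 to P3 lie above every E5.5 embryo for Zic2, Zic5, Sox4, Trim71, Fgf5, Otx2, Dpysl2 and Cd24a, and below them for Pou5f1, Dppa5a and Dnmt3a, while Nanog spans 3.44 to 239.6 CPM.

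Naive and core pluripotency genes were mostly lower or did not pass. Of 13 naive genes tested, 5 fell and 2 rose, and of 12 core genes 5 fell, with median log2 fold changes of -0.33 and -0.23. Of all genes 11.3% fell and 6.5% rose. Dppa5a, an RNA-binding protein of the pluripotent embryo, was at 232 to 637 CPM in the plate embryos (median 277) and at 3014 to 5115 CPM at E5.5 (median 3225), a log2 fold change of -3.42 ± 0.18. Zfp42, Dppa3 and Fgf4 were each under 30 CPM in every plate embryo and between 18.1 and 104.6 CPM at E5.5. In the core list Dppa2 fell from 58.8 to 149.7 CPM to between 0 and 9.21 CPM, and Utf1, a chromatin factor, from 403 to 682 CPM to between 90.2 and 363 CPM, a call that 9 of 30 alternatives lost. Dppa4 and Gdf3 fell as well, but embryo 9 kept 131 and 125 CPM, within the E5.5 ranges of 107 to 225 and of 88.5 to 172 CPM. Sox2 was at 3.26 to 145 CPM against 20.3 to 50.1 CPM and did not pass (adjusted p = 0.17). Pou5f1, which the rule uses, was at 238 to 754 CPM (median 415) against 1458 to 1943 CPM, with no overlap, and is given as a description.

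Nanog, a homeobox factor of naive cells that returns in the posterior epiblast, was the main exception. Its levels were 59.6, 239.6 and 87.1 CPM on P1, 46.6, 110.1 and 5.77 CPM on P2, and 3.44, 79.7 and 164 CPM on P3, against 4.28 to 19.5 CPM at E5.5 (log2 fold change 3.04 ± 0.58). Thus 7 embryos stood above every E5.5 embryo, and embryos 6 and 7 lay within their range or below it. Nanog was detected in 68 of 90 members. Tbx3, a T-box factor of naive cells, also passed (4.81 ± 1.49), but its 82.9 CPM in embryo 9 stood far above the 0.0424 to 10.5 CPM of the other embryos, and the call was lost without that embryo, without plate P3, without embryos 3 and 9 together, with members at least 1 log2 unit from the limit, and with DESeq2. Of 7 germ cell regulators tested, 4 fell, where 11.3% of all genes fell and 6.5% rose. Nanos3 had no count in any plate embryo and 0 to 2.82 CPM at E5.5, and none of these genes rose.

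Of 15 genes of the streak and mesendoderm tested, 8 rose and 2, Dll1 and Fgf3, fell, and the list's median log2 fold change was 3.30. Of all genes 6.5% rose and 11.3% fell. Eomes, a T-box factor of the early streak and endoderm, was at 303, 115 and 149.8 CPM on P1, 144, 147 and 53.9 CPM on P2 and 40.1, 53.6 and 91.1 CPM on P3, against 3.36 to 22.96 CPM at E5.5, with a log2 fold change of 3.38 ± 0.44 with no overlap. Mixl1, a homeobox target of Nodal, was at 209.7 CPM in embryo 3 and at 0 to 71.5 CPM in the others, against 0 to 0.570 CPM (7.34 ± 1.29). Fgf8 was at 8.22 to 204 CPM, Wnt3 at 0 to 68.2 CPM, Cyp26a1, an enzyme that degrades retinoic acid, at 0 to 120.1 CPM and Lhx1 at 0 to 34.8 CPM, and all of them passed. The call for Wnt3 was lost with the embryo number as a block. Evx1, a homeobox factor of the posterior streak, had no count at E5.5 and was at least 241-fold higher over the plate embryos against a floor of 3 counts over the group, with counts in 5 of the 9.

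T itself was rare. It had counts in 11 of 90 members, 9 of them in embryo 3 and 2 in embryo 5, against 56 of the 107 E6.5 cells without a plate name. The highest level was 235.5 CPM, in a cell of embryo 3 that also had 959 CPM of Mixl1, 264 CPM of Eomes and 123 CPM of Mesp1, a factor of nascent mesoderm. Mesp1 was detected in 8 members, all of embryo 3. By contrast Mixl1 was detected in 47 members and Eomes in 76. None of the 7 anterior and neural genes tested passed in either direction, and Sox1 and Six3, factors of the neural plate and forebrain, had counts in 1 member each.

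Endoderm transcripts were also higher in the plate embryos than at E5.5. Summed over the 6 endoderm genes of the rule, plate embryos had 189.9 to 2219 CPM (median 941) and E5.5 embryos 6.08 to 89.5 CPM, while endoderm-side cells averaged 8657 CPM. The rule parted the cells on these 6 genes, so these sums are given as a description. Over 16 further visceral endoderm markers, Cer1 and Foxa2 among them, the sums were 548 to 2164 CPM against 109.9 to 258 CPM. Of these markers 10 rose while Lrp2 fell, where 6.5% of all genes rose and 11.3% fell. Spink3, a secreted protease inhibitor of this layer, was detected in 89 of 90 members and averaged 711 CPM in members and 5626 CPM in endoderm-side cells. None of the 16 was at 0, though Hnf4a and Sox17, factors that define the endoderm, were detected in only 16 and 13 members. Several of the genes that rose were also high in endoderm-side cells, with mean levels of 570.2 CPM for Cyp26a1, 378 CPM for Cer1, 309 CPM for Dkk1 and 243 CPM for Mixl1, against 58.4, 31.5, 24.1 and 71.1 CPM in members. Cd24a averaged 901 CPM there and 559 CPM in members, and Sfrp1 556 and 76.6 CPM. In the 75 members more than 1 log2 unit from the limit the means were 44.6 CPM for Cyp26a1, 64.9 CPM for Mixl1 and 116 CPM for Eomes, against 127, 103 and 131 CPM in the 15 nearer to it. Not every streak gene followed this order, with 40.5 CPM of Wnt3 and 4.41 CPM of Evx1 in the farther members and 35.4 and 0.396 CPM in the nearer ones. The part of endoderm transcripts in these results was not tested. Without embryos 3 and 9, whose members had the highest endoderm means, 2581 genes changed against E5.5, 1031 higher and 1550 lower, and with members at least 1 log2 unit from the limit 2545, 1077 higher and 1468 lower.

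**Figure D3:**
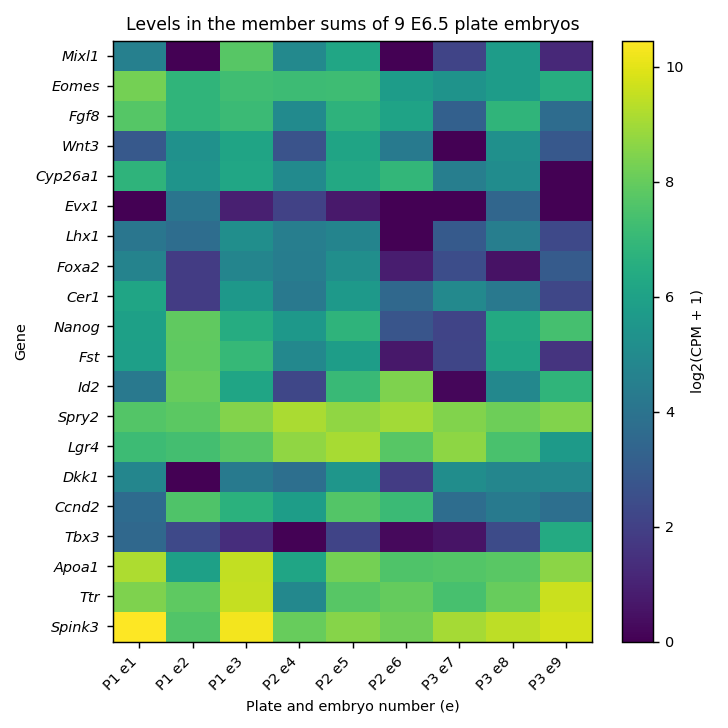
Level of 20 genes in the summed members of the 9 plate embryos, as log2(CPM + 1), with genes in rows and embryos in columns. Streak genes such as Mixl1 (209.7 CPM in embryo 3, 0 in embryos 2 and 6) and Nanog differ widely between embryos of the same plate, while Spry2 stays between 203 and 558 CPM.

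Of 9 FGF ligands, receptors and adaptors tested, 2 rose and 1 fell, where 6.5% of all genes rose and 11.3% fell. Fgf4, the ligand of the naive epiblast, fell while Fgf5 and Fgf8 rose, and no receptor passed. Of 10 targets of FGF and ERK, 3 rose, and all of them are feedback inhibitors. Spry2 was at 203, 223 and 359 CPM on P1, 558, 419 and 513 CPM on P2 and 352, 285 and 354 CPM on P3, against 13.7 to 79.9 CPM at E5.5, with a log2 fold change of 3.47 ± 0.30 without overlap. Spred1 was at 12.7 to 107 CPM against 4.90 to 18.6 CPM (2.08 ± 0.46) and Spred2 at 13.7 to 65.0 CPM against 3.42 to 16.3 CPM (1.67 ± 0.46, lost with the block).

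In the Nodal pathway 2 of 15 genes rose and 3 fell, where 6.5% of all genes rose and 11.3% fell. Nodal was at 0 to 30.8 CPM against 24.8 to 101 CPM (-2.15 ± 0.66) and Foxh1, the DNA-binding partner of its Smads, at 1.96 to 72.8 CPM against 71.5 to 186 CPM (-2.58 ± 0.53). Lefty1, an inhibitor of Nodal, passed at an adjusted p of 0.040 by edgeR's quasi-likelihood test, a call that 13 of 30 alternatives lost. Cer1 had no count at E5.5 and 2.60 to 70.1 CPM in the plate embryos, at least 1974-fold higher against a floor of 3 counts over the group. Smad4, the shared partner of the pathway's Smads, rose with a log2 fold change of 1.07 ± 0.26. Of 17 genes of the BMP pathway, Smad5 (2.24 ± 0.46) and Bmp2, which had no count at E5.5, rose and Bmp7 fell, and the targets Id1, Id2 and Id3 did not pass. Id2, a target that blocks basic helix-loop-helix factors, differed widely between embryos, with 257 CPM in embryo 2 and 346 CPM in embryo 6 but 3.74 CPM in embryo 4 and 0.149 CPM in embryo 7.

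Of 21 Wnt pathway genes tested, 5 rose and 1 fell, where 6.5% of all genes rose and 11.3% fell. Lgr4, a receptor of R-spondins, was at 50.98 to 538 CPM (median 209.6, highest in embryos 4, 5 and 7) against 31.2 to 126 CPM at E5.5 (1.90 ± 0.37), and Fzd2, a frizzled receptor, at 33.2 to 469 CPM against 19.9 to 60.6 CPM (1.83 ± 0.45). Dkk1, a secreted Wnt inhibitor, was at 0 to 44.2 CPM against 0 to 1.08 CPM (6.34 ± 1.19), and Wnt3 and Sfrp1 also rose. Lrp5, a Wnt co-receptor, fell to between 0 and 15.7 CPM from 32.0 to 120 CPM (-3.75 ± 0.80).

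RNA-binding regulators rose in the larger part of the list, with 8 of 14 higher and Dppa5a lower, where 6.5% of all genes were higher, and their median log2 fold change was 1.29. Besides Trim71 and Lin28b these were Msi2, a Musashi protein, at 117 to 270.2 CPM against 29.3 to 67.5 CPM (1.87 ± 0.23), Ptbp2, a splicing regulator, at 111 to 296 CPM against 28.8 to 62.3 CPM (1.98 ± 0.23), the mRNA-binding proteins Igf2bp1 (1.11 ± 0.15), Igf2bp2 (1.14 ± 0.33) and Igf2bp3 (1.47 ± 0.21), and Rbm47 (1.52 ± 0.48). Plate and E5.5 embryos did not overlap for Msi2, Ptbp2 and Igf2bp1. Trim71, Msi2 and Ptbp2 belong to the list of the first epiblast class as well, which was chosen on these samples. The count and the median of the RNA-binding regulators are therefore not independent evidence. Of 15 epithelial and adhesion genes Podxl, a sialomucin of the lumen, rose (1.24) and Fn1, fibronectin, fell (-2.34). These counts are near the shares of all genes, 6.5% higher and 11.3% lower. The call for Podxl was lost without embryo 9 and with members at least 1 log2 unit from the limit, and its mean level was 338 CPM in endoderm-side cells and 114 CPM in members. Of 15 Polycomb genes tested only Jarid2, a recruiting subunit of PRC2, passed (1.10 ± 0.19). Of 10 DNA methylation genes 2 passed, and both fell, Dnmt3a and its cofactor Dnmt3l, which went from 70.8 to 207 CPM to between 0 and 21.7 CPM.

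**Figure D4:**
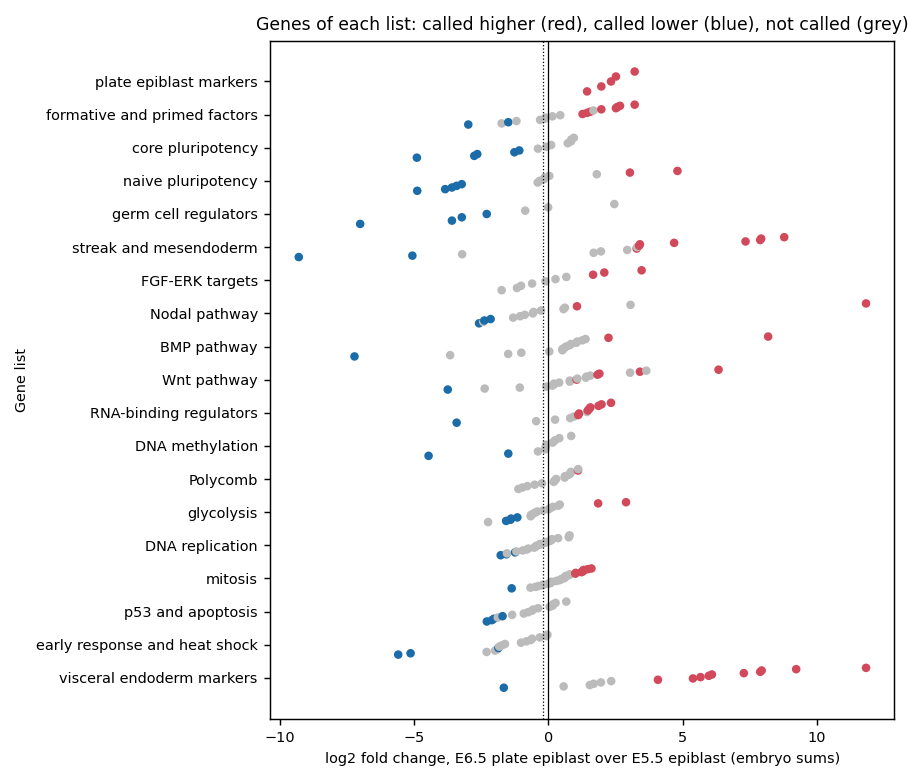
Log2 fold change of each tested gene of 19 lists between the E6.5 plate epiblast and the E5.5 epiblast, with genes that passed coloured red (higher) or blue (lower) and the others grey. The dotted line is the median of all genes (-0.19). RNA-binding regulators have 8 red points of 14 and visceral endoderm markers 10 of 16. Among the 8, Trim71, Msi2 and Ptbp2 are on lists chosen on these samples, so that count is not independent evidence. Mitosis genes have 8 red and 1 blue of 28, core pluripotency genes 5 blue of 12 and naive genes 5 blue and 2 red of 13, and the others in these lists are grey.

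Among 18 genes of glycolysis and its transporters 4 fell and 2 rose, where 11.3% of all genes were lower and 6.5% higher. Those that fell included Eno1 (1136 CPM median against 2648 CPM, -1.15 ± 0.14, under the fold limit in 3 of 30 alternatives) and the lactate exporter Slc16a3 (-1.57 ± 0.26). The genes that rose were the glucose transporter Slc2a3 and the monocarboxylate transporter Slc16a1, Slc2a3 from 6.54 to 56.4 CPM to 66.2 to 308 CPM with 868 CPM in embryo 9. Mycn, a Myc factor of the early embryo, was the 1 gene of 10 in the Myc and growth list that passed, at 135 to 296 CPM against 20.6 to 69.5 CPM (2.36 ± 0.25). Of 28 mitosis genes 8 rose and Cdc20 fell (median log2 fold change 0.56). Nusap1, a spindle protein, was at 92.8 to 192 CPM against 25.3 to 58.4 CPM (1.605 ± 0.249), without overlap, and Mki67 at 136 to 527 CPM against 54.7 to 180.0 CPM (1.46 ± 0.28). Of 22 replication genes 3 fell and none rose, near the 11.3% of all genes that were lower. Mcm5 was among them (-1.24 ± 0.23, under the fold limit or not passing in 3 of 30 alternatives). Cyclin D2 (Ccnd2) rose with 11.6 to 201 CPM against 6.82 to 27.8 CPM (2.55 ± 0.59, lost with the block), as did the inhibitor Cdkn1b (2.31 ± 0.40).

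Of 16 genes of the p53 response and apoptosis 4 fell and none rose, where 11.3% of all genes fell and 6.5% rose. Bax, a pore-forming apoptosis effector, was at 125 to 436 CPM against 687 to 1181 CPM (-1.71 ± 0.22) and Phlda3, a p53 target, at 4.61 to 53.4 CPM against 61.0 to 283 CPM (-2.10 ± 0.35), both without overlap. Of 16 early response and heat shock genes 3 fell, Ier3, Fosb and Dusp1, and none rose. Dusp1 was at 2.99 to 28.6 CPM against 31.9 to 60.6 CPM. Extraembryonic ectoderm markers gave no call among 10 tested, and their sums were 13.1 to 223 CPM against 66.2 to 176 CPM. Elf5, a defining gene of that tissue, had counts in 11 members, from embryos 5, 6 and 9. The study had removed cells with counts of Elf5 and further trophoblast genes, which limits these values.

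The genes with the largest rise whose embryos did not overlap were Cer1, Spink3, Foxa2, Gm10717 and Gm10722. Foxa2, a forkhead factor of anterior streak and endoderm, was at 0.416 to 35.3 CPM against 0 to 0.295 CPM. The largest drops were those of Aire, Gm4969, Padi6, H2-M3 and 4930591A17Rik, none of which had a count in any of the 9 plate embryos. Aire, known as the regulator of tissue antigens in the thymus, was at 57.3 to 172 CPM at E5.5 (median 112) and at least 2886-fold lower on the plates, against the floor of 3 counts over the group. It had no count in the 3 embryos without a plate name either. Padi6, a protein of the egg's cytoplasm, was at 4.37 to 26.1 CPM at E5.5 and at least 372-fold lower.

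The second comparison set the same 9 embryos against 3 embryos without a plate name, so both comparisons share the plate embryos. Most cells of those 3 embryos were titled E6.75, with 36 and 7 cells against 6 in the embryo titled E6.5. This age label cannot be told apart from the lack of a plate name. Without the cells titled E6.75 only 1 such embryo is left, so no count of calls is given for that setting. Of the cells without a plate name only those with no count of T were used, so streak genes are not read from it. In it 193 genes changed, 103 higher on the plates (0.747% of those tested) and 90 lower (0.653%), by the same test and limits. With the embryo number as a block, which pairs nothing, 19 genes were called, 18 higher and 1 lower, and with DESeq2 384. Without the E6.5 embryo 2 of the cells without a plate name 73 were called, and without E6.75 embryo 2 98. Median genes detected per member were 5315 to 6475 over the plate embryos and 7910 to 9429 over the embryos without a plate name. The latter range includes cells with counts of T and the no-plate embryo 1 titled E6.5, which the test left out. The part of genes detected in the result was not tested.

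Of the list of the first epiblast class 11 of 18 were higher on the plates than without a plate name, and of the list of the second class 7 of 17 were lower, but both lists were chosen on these cells. Trim71 was at 61.5, 144 and 156 CPM in the embryos without a plate name, below all plate embryos (1.72 ± 0.38), and Klhl9, an adaptor of ubiquitin ligases, at 67.6, 89.5 and 99.2 CPM against 240.2 to 664 CPM on the plates (2.14 ± 0.36). Zic5 was at 48.9, 229.8 and 248 CPM, and Zic2 at 17.06, 29.3 and 38.2 CPM, and neither passed (adjusted p = 0.18 and 0.45 by edgeR's quasi-likelihood test). Fgf5 did not pass either, with a log2 fold change of 0.31 ± 0.33. Dennd5b was the reverse, at 153, 343 and 370.2 CPM without a plate name and 10.5 to 68.1 CPM on the plates (-3.004 ± 0.39), and Cxcr2, a chemokine receptor, went from 12.1, 50.8 and 101 CPM to between 0 and 3.87 CPM (-5.61 ± 0.92).

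Genes of other lists rarely passed in this comparison. Spry2 (2.45 ± 0.44), Lgr4 (2.79 ± 0.58), Jarid2 (1.18 ± 0.27) and, of the 14 RNA-binding regulators, Lin28a (1.17 ± 0.29), Trim71, Msi2 and Ptbp2 were higher on the plates. Trim71, Msi2 and Ptbp2 also belong to the list of the first class, chosen on these cells. Spry2 was at 43.1, 71.3 and 84.6 CPM without a plate name, below every plate embryo. Nanos3 and Gapdh, a glycolytic enzyme, were lower, Gapdh at 73.6 to 204 CPM against 307, 316 and 389.6 CPM. Pou5f1 stood at 746, 804 and 1313 CPM without a plate name, against 238 to 754 CPM. None of 13 naive genes, 15 Nodal pathway genes, 28 mitosis genes or 16 visceral endoderm markers passed. The rule chose the cells of both groups on its 6 endoderm genes, so their sums are given as a description only. Without a plate name they ranged from 329 to 1984 CPM. That range includes cells with counts of T and the no-plate embryo 1 titled E6.5, which the test left out. Of the 23 named genes followed through the alternatives none was called under all of them, and with the block Dennd5b alone was still called. The call for Dennd5b was lost without the cells titled E6.75, a setting that leaves 1 embryo without a plate name.

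By the rule of size, the genes with the largest rise on the plates were AC242409.1, Gm10801, Gm10800, Zfp691 and Bhlhe41, and those with the largest drop were B3galt4, Bcl6b, Zfp551, Pqlc1 and Fam46c. Gm10800 was at 69.7 to 1562 CPM on the plates, 31.5 to 56.3 CPM without a plate name and 1.90 to 17.12 CPM at E5.5. Gm10800, Gm10801, AC242409.1, Gm10717 and Gm10722 are predicted genes with near copies, among which the counting could have divided reads, so their values are uncertain. Bhlhe41, a repressor of the clock and of differentiation, was at 5.86 to 53.5 CPM against 0.619, 2.23 and 2.31 CPM. The 5 genes with the largest drop had no count on the plates, apart from 1 count of Zfp551, and under 20 CPM without a plate name.

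Between the 3 plates few genes differed. Of 10593 genes 3 passed (0.0283%), Rps25, Rpl37a and Rplp1, and 632 had an unadjusted p under 0.05 (edgeR's quasi-likelihood test over the plates). All are ribosomal protein genes, and all were lowest on P2. Rps25 was at 4957, 4228 and 5270.4 CPM on P1, 2064, 2542 and 2753 CPM on P2, and 4586, 5938 and 6243 CPM on P3 (adjusted p = 0.0436). Rpl37a was at 1809 to 2269 CPM on P1, 649 to 897 CPM on P2 and 1935 to 2239 CPM on P3. Each of the 3 calls was lost with relative log expression scaling, with single wells only and when embryo 1, 3, 4, 5, 6, 8 or 9 was left out, and DESeq2 called 144 genes. Of 79 ribosomal protein genes, a set chosen after these values were seen, 48 (60.8%) had all P2 embryos below all others, against 2.75% of all genes, and the median ratio of P2 to the mean of the other plates was 0.671. Ribosomal protein genes have many processed copies in the genome, so reads of single members may be divided. None of the other lists gave a call between plates, including the 5 markers.

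Most of the variation lay between cells of the same embryo. Over 7644 genes, the median share of the sum of squares of log2(CPM + 1) was 2.71% between plates, 6.42% between embryos of a plate and 89.9% within embryos, where the degrees of freedom alone give 2.27, 6.82 and 90.9%. Streak genes had medians of 16.1, 6.47 and 80.4% in this order, and visceral endoderm markers 11.6, 7.34 and 79.3%. For the endoderm genes that the rule used the medians were 24.4, 19.4 and 55.4%, given as a description. These shares weigh each cell alike, and on P1 embryo 3 had 23 members and embryos 1 and 2 had 3 each. The P1 mean is therefore mostly that of embryo 3. None of 10 streak genes tested between plates on embryo sums passed. The ribosomal protein gene Rps25 had 80.7% between plates. The largest shares between embryos, among genes named after their values were seen, were those of Trib3, Fastkd3, Marcks, H19 and Id2, at 36.4 to 34.1%, and Cd24a had 30.6%. H19 is an imprinted noncoding RNA, and Marcks a membrane-bound substrate of protein kinase C.

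Cells of an embryo were farther apart at E6.5 than at E5.5 when each stage was measured on its own most variable genes. Distance here is the square root of (1 - rho) / 2, where rho is the rank correlation of a pair of cells across 500 highly variable genes. The embryo medians were 0.569 in embryo 3, 0.497, 0.482 and 0.495 in embryos 4 to 6 and 0.503, 0.515 and 0.540 in embryos 7 to 9, against 0.425 to 0.464 in the 8 E5.5 embryos. The means were 0.514 ± 0.030 (SD, n = 7) and 0.446 ± 0.015 (SD, n = 8), a difference of 0.0684 with p = 0.000155 in an exact two-sided permutation test, the smallest it can give. The groups shared 73 of their 500 genes. On the most variable genes of E5.5 the order turned, with a difference of -0.0334 (exact permutation p = 0.00917), so the direction depends on which genes are compared.

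Cyclone, a classifier trained on other mouse cells, called 81 of 89 members G1, 8 S and none G2M, against 171, 71 and 9 of 251 E5.5 cells, with 634 of its 667 genes matched. No G2M call among 89 members allows a share of such calls of up to 3.37%, for counting error only and with cells taken as independent. Cells of an embryo are not independent, and the value limits calls, not cells that are in G2M. Per embryo the G1 share was 78.3 to 100% with a mean of 93.1% ± 9.9 (SD, n = 7) at E6.5 and 35.3 to 81.6% with a mean of 66.5% ± 15.1 (SD, n = 8) at E5.5 (exact two-sided permutation p = 0.00218). The calls are no measure of cycling by themselves, and beside them 8 of 28 mitosis genes were higher than at E5.5, where 6.5% of all genes were. Top2a, a DNA decatenating enzyme of cycling cells, was detected in all 89 members deep enough to be thinned.

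**Figure D5:**
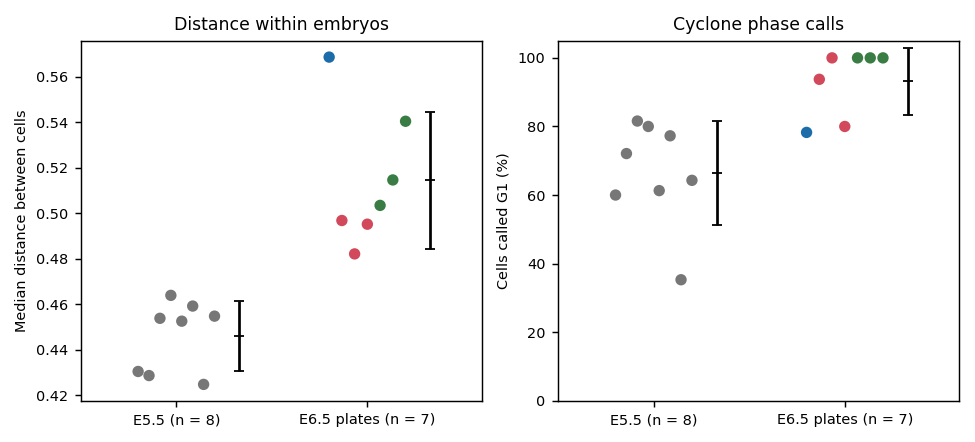
Median distance between cells (left, no unit) and share of cells called G1 (right, percent) in each embryo, with E5.5 in grey and plates P1, P2 and P3 in blue, red and green. Points are embryos and error bars are mean and SD. The 7 plate embryos lie above 0.48 in distance and all E5.5 embryos below 0.47, while G1 shares overlap.

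The genes that varied most between cells of the same embryo, relative to genes of similar mean, included transcripts of the endoderm. Over 7326 genes and the 5 embryos with at least 8 members, the 20 leading genes held Spink3 (rank 5), Ttr (rank 15) and Apoe (rank 16), a lipid carrier. Ttr is a gene of the rule that chose the members, so its rank is given as a description. The 20 were led by Fth1, the heavy chain of ferritin, with a median log10 distance of 0.625 above genes of similar mean. The others were 2310004I24Rik, Tmem106c, Foxo1, Mtch2, Syde2, Steap3, 3110056O03Rik, Prr11, Med27, Psmb2, Dtna, Aga, Calm2, Bclaf1, Zfp933 and 8430410A17Rik. Foxo1, a forkhead factor held in check by insulin signalling, was detected in 55.1% of cells and stood above genes of similar mean in 4 of the 5 embryos. Among other listed genes Gdf3 ranked 32, Trf, the iron carrier transferrin, 38, Top2a 48, Id3 76 and Id1 117, each above in 5 of 5 embryos. Top2a and Id3 were detected in 100% of cells, Id1 in 56.2%, Trf in 36.0% and Gdf3 in 15.7%. Of the 20 leading genes Dtna, Steap3, 3110056O03Rik and Aga were detected in 10.1 to 15.7%. For genes detected so rarely, few cells with counts set the distance in an embryo. With embryos of at least 12 members only 2 of the 20 stayed among the first 20.

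Genes of a list rarely varied together across the cells of an embryo. The mean Spearman's rho between genes of a list had a median over the 5 embryos of 0.208 for the visceral endoderm markers, against 0.0144 over all genes. Streak genes reached 0.424 in embryo 5 but had a median of 0.0913, with -0.0802 and -0.0524 in embryos 7 and 8. Replication genes had 0.0754 and mitosis genes 0.0538. Zic2 and Zic5, which adjoin on chromosome 14, had rho between 0.0996 and 0.833 (median 0.285), above 0 in 5 of 5 embryos. Other pairs of listed genes also kept the same sign in all 5, such as Mixl1 and Pou5f1 (0.0954 to 0.479). For Sox2 and Zic2 it was below 0 in all 5 (-0.462 to -0.0153). No likeness of Zic2 and Zic5 is therefore read from these values. For single genes taken as seeds, such as Otx2, Nanog or Top2a, 5 to 13 genes had a median rho of at least 0.4 and one above 0 in every embryo, where a median of 11 and a 95th percentile of 26 were found over 700 genes taken in turn, so no likeness is named. The embryos held 8 to 23 members each after thinning, and the cells of an embryo share its plate and depth.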

How the data were processed

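The authors trimmed the single-cell reads with Trim Galore (0.4.3) and aligned them with HISAT2 (2.0.5) to GRCm38, per the submitters' processing notes (the study's methods name other versions of both tools), kept reads mapped with confidence and counted them on genes with SeqMonk. They then removed cells with few genes or much mitochondrial RNA, as well as empty wells, wells with more than a pair of cells, and trophoblast cells, known by counts of Elf5, Wnt7b and Tex19.1 together. The deposited values are raw read counts per gene and cell in 24483 gene rows, none of them on X, Y or mitochondrial DNA. The members and gene lists were chosen with earlier results of these data known.

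Member counts were summed per embryo, since the embryo is the replicate. Sums were scaled by TMM, filtered with filterByExpr and tested with edgeR's quasi-likelihood test (edgeR 4.0.16, R 4.3.3), with Benjamini-Hochberg adjustment over all genes tested. The plate, E5.5 and no-plate embryos shared 1 model, and the 3 plates were tested on their own. The tests were tried on simulated data with known changes, which were recovered in full against E5.5 and in part in the smaller comparisons. Distances used counts thinned to 300000 per cell after ComBat by plate (sva 3.50.0), and phases used cyclone (scran 1.30.0), in embryos with at least 4 cells left. Variability was the squared coefficient of variation against a rolling median of 51 genes of similar mean, for genes with a mean of at least 10 CPM. Named were the listed genes, the 5 called genes with the largest rise and drop without overlap in each comparison, the called genes highest in each plate, and the 20 most variable genes. Alternatives were DESeq2 (1.42.0), RLE scaling, other filters and depths, embryos, plates or wells left out, and the embryo number as a block. The numbers are names of different animals, and deviations of same-numbered embryos had correlations between -0.0539 and 0.0168, so they pair nothing. The study states that its batches are different litters, so embryos of a plate may share a litter, litter and plate cannot be told apart, and p-values measure the spread between these embryos only.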

Additional observations from a re-analysis of the deposited data

Results flagged for a closer look

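Of 117 groups of 4 to 10 embryos checked for an embryo far from the rest, 16 held one. Chance alone flags about 1 in 20 groups, and several of the genes were followed because earlier results named them.

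Embryo 9 of plate P3, with 5 members, stood apart in the most genes. It was highest for Dppa5a (637 CPM), Slc2a3 (868 CPM), Bmp2 (11.2 CPM), Dppa4 (131 CPM), Gdf3 (125 CPM) and Tbx3 (82.9 CPM). On plate P1, embryo 1, with 3 members, was highest for Eomes (303 CPM), Fzd2 (469 CPM) and Cxcr2 (3.87 CPM). Embryo 3 was highest for Mixl1 (210 CPM), and embryo 2 was far below the others for Smad4 (34.5 CPM). On P2, embryo 6 stood out for Foxh1 (72.8 CPM) and embryo 5 for the summed anterior and neural genes (125 CPM). On P3, embryo 7 was highest for Ptbp2 (296 CPM) and embryo 8 for Dnmt3l (21.7 CPM). Among E5.5 embryos, embryo 4 had the lowest share of cells called G1, 35.3%.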

How the results depend on the processing

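The count of genes changed against E5.5 ranged from 1655 to 3534 over the alternatives, 2107 to 2628 with 1 embryo left out, around the 2458 reported. Without embryos 3 and 9, an alternative chosen after seeing the data, it was 2581 there and 256 against the embryos without a plate name. With the embryo number as a replicate block it was 2523, but the split of directions turned further to lower genes. That block gave 19 genes against the embryos without a plate name in place of 193, where DESeq2 gave 384, no condition on T 356, and leaving out 1 embryo 73 to 239. Between plates the 3 calls became 144 with DESeq2, 137 with no filter on low counts, 10 with thinned counts, and 0 with RLE scaling, single wells or members at least 1 log2 unit from the limit, with 0 to 5 when 1 embryo was left out. The distance between cells reversed to -0.0334 with E5.5 genes for both groups and was otherwise 0.0452 to 0.104. The difference in G1 share stayed on its side of the threshold (22.2 to 29.3 percentage points), and 2 of the 20 most variable genes stayed with at least 12 cells per embryo. Of 82 named genes against E5.5, 72 were called under every alternative and none reversed. The cause of these changes was not tested. Several embryos have 3 to 5 members, which limits the precision of their sums.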
